A study of Homo sapiens with 20 samples.

Results

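The 9 genes described here encode the channels that set and drive the membrane potential of hormone-secreting islet cells. They are the ATP-sensitive potassium (KATP) channel genes ABCC8 and KCNJ11, the voltage-gated calcium channel genes CACNA1A, CACNA1C, CACNA1D and CACNA1H, the two-pore potassium channel gene KCNK3, and the voltage-gated sodium channel genes SCN3A and SCN9A. They were found by matching the Ensembl identifiers in the deposited tables to these symbols. All 9 were listed among 60624 identifiers for human islet-like organoids (hILOs) and among 60623 for pancreatic progenitors (PPs).

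Both stages were differentiated from a human embryonic stem cell line, MEL1, which carries GFP at 1 insulin allele and which was either unedited (WT) or knocked out for ALKBH5 (A5-KO). ALKBH5 removes the N6-methyladenosine (m6A) mark from RNA. The knockout was made with CRISPR-Cpf1 guides to the first exon, and the A5-KO cells are a line grown from a picked colony, so the genotype and the line cannot be told apart. The 4 hILO libraries comprise 2 WT and 2 A5-KO, with media that the labels list to day 22. The 16 PP libraries, with media listed to day 14, comprise 2 for each genotype after 0, 1, 2 or 3 h in the transcription inhibitor actinomycin D (Act D, 1 μg/ml), and 0 h is the untreated control. The labels do not say whether the 2 libraries of a group came from separate cultures, although the study describes its Act D pairs as biological replicates. The p-values measure only the spread between these libraries, which may be technical where the source is not given.

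In a beta cell, ATP made from glucose closes KATP channels, the membrane depolarises, voltage-gated sodium and calcium channels open, and the calcium that enters triggers the release of insulin. ABCC8 encodes SUR1, the regulatory subunit to which sulfonylurea drugs bind, and KCNJ11 encodes Kir6.2, the pore. CACNA1C and CACNA1D encode L-type calcium channels, CACNA1A a P/Q-type channel and CACNA1H a T-type channel that opens at low voltage. KCNK3 encodes TASK-1, a potassium leak channel that is closed by acid, and SCN3A and SCN9A encode the sodium channels Nav1.3 and Nav1.7.

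Because ALKBH5 acts on m6A, which is laid down mainly at a short consensus and is enriched towards the stop codon, the last 150 coding bases of the 4 members that the results turn on are shown. They are printed 5′ to 3′ on the mRNA strand from the GENCODE reference transcript (GRCh38), stop codon included, with GGAC plus the next base in capitals wherever that base is not G, on this strand only.
KCNK3 (chr2:26728419-26728568, plus strand): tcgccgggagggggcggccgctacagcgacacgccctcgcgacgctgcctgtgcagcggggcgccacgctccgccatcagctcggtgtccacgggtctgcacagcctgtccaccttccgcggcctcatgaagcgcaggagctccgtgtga
CACNA1H (chr16:1220845-1220994, plus strand): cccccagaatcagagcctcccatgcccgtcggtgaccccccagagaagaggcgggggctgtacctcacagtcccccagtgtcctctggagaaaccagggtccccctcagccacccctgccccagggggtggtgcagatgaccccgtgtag
KCNJ11 (chr11:17386919-17387068, minus strand): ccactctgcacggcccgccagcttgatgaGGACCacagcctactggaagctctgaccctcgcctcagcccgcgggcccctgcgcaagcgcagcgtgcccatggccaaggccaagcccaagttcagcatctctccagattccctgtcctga
ABCC8 (chr11:17392991-17393708, minus strand, with an intron inside this span): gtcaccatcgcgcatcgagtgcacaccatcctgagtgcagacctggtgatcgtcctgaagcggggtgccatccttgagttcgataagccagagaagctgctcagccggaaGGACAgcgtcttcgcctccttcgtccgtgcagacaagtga
ABCC8 and KCNJ11 each held 1 such match in this window, and KCNK3 and CACNA1H held 0. Of 19078 reference coding sequences searched on the same strand, 45.8% held at least 1 match in the same window. Over the whole coding sequence, KCNK3 held 4 matches in 1185 bases (3.38 per kb), KCNJ11 6 in 1173 (5.12 per kb), ABCC8 23 in 4746 (4.85 per kb) and CACNA1H 38 in 7062 (5.38 per kb). The other members ran from 1.67 per kb in SCN3A to 6.25 per kb in CACNA1A, against a median of 3.93 per kb over all coding sequences. GGAC plus a base other than G is narrower than DRACH, the motif that the study reports as dominant (D is A, G or U, R is A or G, H is A, C or U). A window with 0 matches can therefore still hold a DRACH site. A match is a description of letters, and no m6A measurement was used here.

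ABCC8 (chr11:17392498-17476894) and KCNJ11 (chr11:17365172-17389331) are neighbours on the minus strand. SCN3A (chr2:165087526-165204050) and SCN9A (chr2:166195185-166376001) lie on the minus strand of chromosome 2, and KCNK3 (chr2:26692722-26733420) on its plus strand. The coding sequences of SCN3A and SCN9A share an identical run of 206 bases, so reads from it could be split between them, and the values of this pair are uncertain to that extent. CACNA1A (chr19:13206442-13633025, minus strand), CACNA1C (chr12:1970772-2697950), CACNA1D (chr3:53328963-53813733) and CACNA1H (chr16:1153106-1221771, the last 3 on the plus strand) lie on separate chromosomes. The longest run shared by any other pair was 38 bases, in CACNA1C and CACNA1D.

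The targeted gene was low in every knockout library. In TPM (transcript abundance scaled for length and library size), ALKBH5 stood at 78.8 and 81.9 in WT hILOs and at 4.16 and 3.42 TPM in A5-KO hILOs, and in PPs its 8 WT libraries ran from 33.7 to 172 CPM and its 8 A5-KO libraries from 7.43 to 19.1 CPM. The PP libraries held 30516384 to 35206514 reads. TPM keeps no depth, so that of the hILO libraries is unknown. The endocrine markers summed to between 19648 and 22351 TPM in hILOs, and all 4 hormones were present, whereas INS, GCG and PPY stayed below 1 CPM in untreated PPs. The PP markers summed to 798 and 1020 CPM in untreated WT PPs and to 737 and 813 CPM in untreated A5-KO PPs. Of these, NKX6-1 was lower in both A5-KO libraries (328 CPM in WT against 247 CPM in A5-KO on average). PDX1, SOX9 and MNX1 overlapped between the genotypes.

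In hILOs the members spanned a wide range of levels. On the per-length TPM scale the medians over the 4 libraries ran in the order ABCC8 (64.1 TPM), KCNJ11 (46.1), CACNA1H (31.5), SCN3A (27.8), CACNA1A (13.6), KCNK3 (10.5), SCN9A (2.38), CACNA1D (1.92) and CACNA1C (0.711). ABCC8 and KCNJ11 did not overlap, since the lowest ABCC8 library (56.4 TPM) was above the highest KCNJ11 library (47.6 TPM). CACNA1H did overlap its neighbour SCN3A, KCNK3 overlapped CACNA1A, and CACNA1D overlapped both SCN9A and CACNA1C, so the order within those pairs was not beyond the spread. The KATP genes were thus the most abundant of the 9, with ABCC8 at the 92.9th percentile and KCNJ11 at the 90.1th percentile of the 35056 genes above 0.

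**Figure D1:**
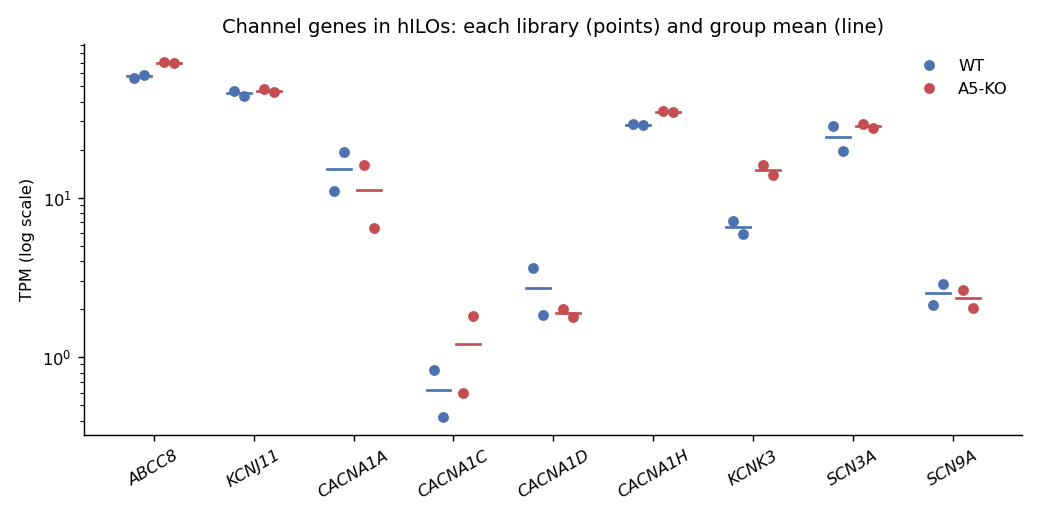
TPM of the 9 channel genes in hILOs on a log axis, with each library as a point (2 WT and 2 A5-KO) and the group mean as a line. KCNK3 was at 5.94 and 7.14 TPM (WT) against 14.0 and 16.03 TPM (A5-KO), while the KCNJ11 libraries of both genotypes lay together between 43.5 and 47.6 TPM.

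The first comparison asked whether the channel genes differed between A5-KO and WT hILOs, in which islet hormone mRNAs were also measured. A gene was tested where its mean TPM was at least 1, with limma on log2(TPM + 1), and called where the Benjamini-Hochberg adjusted p was below 0.05 and the change over 1.5-fold. Of the 9 members 8 were tested, 1 was called higher (KCNK3) and 0 were called lower, against 2.7% called higher and 4.09% called lower of all 17300 genes tested. By limma before adjustment, 3 of the 8 had p below 0.05 (ABCC8, CACNA1H and KCNK3), all higher. Of all 17300 genes, 3238 were lower and 2106 higher at that p. CACNA1C, at 0.419 and 0.827 TPM (WT) against 0.595 and 1.82 TPM (A5-KO), was not tested. The median log2 fold change of the 8 was 0.16, and that of all genes was −0.06. Relative to the typical gene, member values in hILOs therefore stand higher by the size of that all-gene median.

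Neither KATP gene was called lower. ABCC8 was at 56.4 and 58.9 TPM (WT) against 71.0 and 69.2 TPM (A5-KO). Both A5-KO libraries lay above both WT libraries, a log2 fold change of 0.28 ± 0.05 (SE, n = 2 per genotype; limma adjusted p = 0.045). That is under the 1.5-fold limit, so ABCC8 was not called, and its adjusted p was 0.086 when genes of low level were kept in the fit and between 0.13 and 0.17 when any 1 library was left out. Over the fit settings that kept every library, the ABCC8 estimate ran from 0.28 to 0.34 and its limma adjusted p from 0.026 to 0.092. KCNJ11 was at 46.5 and 43.5 TPM (WT) against 47.6 and 45.7 TPM (A5-KO). Here the genotypes overlapped, with a log2 fold change of 0.05 ± 0.06 (SE) and a 95% confidence interval from −0.12 to 0.22 (limma adjusted p = 0.63). The ratio of ABCC8 to KCNJ11 was 1.22 and 1.35 in WT and 1.49 and 1.52 in A5-KO.

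The hormone mRNAs fell in the same libraries. INS went from 13005 TPM ± 39.0 (SD, n = 2) in WT to 7605 TPM ± 0.71 in A5-KO (log2 fold change −0.77, limma adjusted p = 0.0021). GCG, SST and PPY were called lower too, by log2 fold changes of −0.82, −1.79 and −2.66, so 4 of 4 hormones fell. Per 1000 TPM of INS there were 4.33 and 4.54 TPM of ABCC8 in the WT libraries against 9.33 and 9.10 TPM (A5-KO). The denominator of this ratio is the gene that fell. In bulk libraries such as these, fewer cells of a type and less RNA per cell cannot be told apart.

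**Figure D2:**
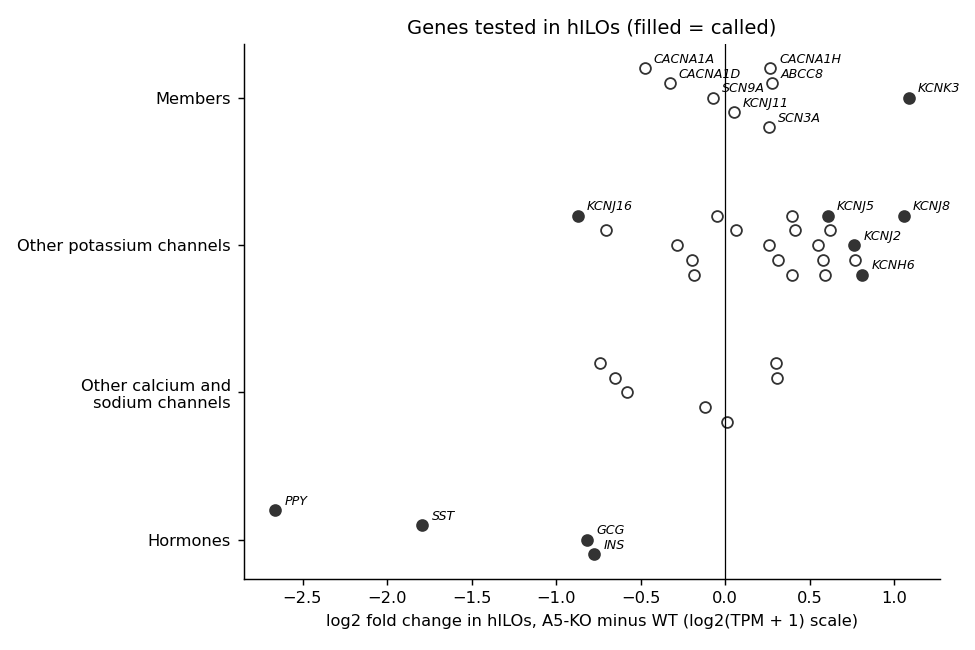
Log2 fold change (A5-KO minus WT, log2(TPM + 1) scale) in hILOs for the tested members, listed other potassium channels, listed other calcium or sodium channels and islet hormones, with each gene as a point and called genes filled. Of the members only KCNK3 (1.09) was called, whereas the 4 hormones lay between −2.66 and −0.77.

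KCNK3 showed the largest change of the members in hILOs. It was at 7.14 and 5.94 TPM (WT) against 16.03 and 14.0 TPM (A5-KO), so the lower A5-KO library was well above the higher WT library. The log2 fold change was 1.09 ± 0.14 (SE, n = 2 per genotype; 95% confidence interval 0.70 to 1.47; limma adjusted p = 0.021). The estimate stayed between 0.971 and 1.202 when each library was left out in turn, but the adjusted p then lay between 0.072 and 0.095, so the call was lost whichever WT or A5-KO replicate was dropped. Each such fit, here and in PPs, leaves 1 library in a group and assumes that it varies like the other group. It was also lost, at an adjusted p of 0.080, when genes of low level were kept in the fit.

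Among the calcium channels, CACNA1H was at 28.8 and 28.3 TPM (WT) against 34.9 and 34.3 TPM (A5-KO). The genotypes did not overlap, with a log2 fold change of 0.27 ± 0.06 (SE), but the limma adjusted p was 0.065 and CACNA1H was not called. Over the fit settings that kept every library, its estimate ran from 0.27 to 0.33 and its limma adjusted p from 0.037 to 0.125. CACNA1H supplied 65.0% and 56.9% of the TPM of the 4 calcium channel members in WT, and 65.2% and 77.4% in A5-KO. CACNA1A was at 11.1 and 19.2 TPM (WT) against 16.03 and 6.41 TPM (A5-KO). The replicates of both genotypes lay far apart, and the log2 fold change of −0.48 had a 95% confidence interval from −1.81 to 0.86 (limma adjusted p = 0.56), an interval that includes a 1.5-fold difference either way. CACNA1D was at 3.62 and 1.85 TPM (WT) against 1.99 and 1.79 TPM (A5-KO), and the groups overlapped (log2 fold change −0.33, limma adjusted p = 0.50). Its exons share 1399 bases with the opposite-strand gene CHDH, which was at 13.1 to 15.2 TPM, and whether strand was used in counting was not stated in the sources used here.

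The sodium channels showed no detectable difference. SCN3A was at 28.2 and 19.5 TPM (WT) against 29.1 and 27.4 TPM (A5-KO), with overlapping genotypes (log2 fold change 0.26, 95% confidence interval −0.25 to 0.77, limma adjusted p = 0.41). SCN9A was at 2.13 and 2.89 TPM (WT) against 2.63 and 2.04 TPM (A5-KO), also overlapping (log2 fold change −0.07, 95% confidence interval −0.65 to 0.51, limma adjusted p = 0.85). SCN3A made up 87.1% to 93.1% of the TPM of this pair in the 4 libraries.

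Markers of other cell types moved with genotype in the same libraries. The 5 hepatocyte markers summed to 8681 and 8905 TPM in WT and to 12666 and 12896 TPM in A5-KO, with 2 called higher (ALB, APOA2) and 2 lower. The 6 mesenchyme markers summed to between 5.89 and 10.5 TPM in WT and between 24.5 and 30.1 TPM in A5-KO, with DCN and PDGFRB below 1 TPM in every library. COL1A2 (4.31 TPM in WT against 17.3 TPM in A5-KO on average) and LUM (0.90 against 4.38 TPM) were called higher. COL3A1 (1.68 against 4.62 TPM) was not called. COL1A1 went the other way, below 1 TPM in every A5-KO library but not in every WT library, and was not tested. The 5 neuron markers, which islet cells also express in part, summed to 839 and 851 TPM in WT and to 979 and 1004 TPM in A5-KO, with ELAVL4 below 1 TPM in every library. Of these NEFM was called higher (216 against 470 TPM on average, log2 fold change 1.12) and TUBB3 lower (173 against 107 TPM, −0.69), and STMN2 had 454 against 413 TPM. The 5 enterochromaffin markers summed to 1312 and 1315 TPM (WT) against between 1069 and 1142 TPM (A5-KO), with TPH1 (−0.67) and SLC18A1 (−0.70) called lower. Of the endocrine markers other than hormones, the granule protein gene SCG2 was called higher (0.90). CHGA (−0.155), CHGB (−0.0073) and SYP (0.088) were not called. The part of these cell types in the KCNK3, ABCC8 and CACNA1H values was not tested.

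Of 70 genes in 7 lists of related channels, 28 were tested, with 4 called higher and 1 lower and a median log2 fold change of 0.31. Of all 17300 genes 2.7% were called higher and 4.09% lower, with a median of −0.06. KCNJ8, the Kir6.1 pore of other KATP channels, went from 3.06 TPM ± 0.61 (SD, n = 2) to 7.45 TPM ± 1.19 (log2 fold change 1.06, limma adjusted p = 0.042). The inward rectifiers KCNJ2 (0.77) and KCNJ5 (0.61) and the voltage-gated KCNH6 (0.81) were called higher as well. KCNJ16, another inward rectifier, was called lower (−0.87). Each of these 5 calls was lost whichever library was left out, with limma adjusted p from 0.105 to 0.147 for KCNJ8, 0.140 to 0.163 for KCNJ2, 0.106 to 0.150 for KCNJ5, 0.052 to 0.092 for KCNH6 and 0.115 to 0.165 for KCNJ16.

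The relatives of KCNK3 that are best known from islets were far more abundant. KCNK16, the TALK-1 channel of beta cells, was at 254 TPM ± 18.8 (SD, n = 2) in WT and at 386 TPM ± 70.7 in A5-KO (log2 fold change 0.59, limma adjusted p = 0.071). KCNK17 was at 109 TPM ± 11.2 in WT and at 143 TPM ± 4.53 in A5-KO (log2 fold change 0.40, limma adjusted p = 0.056). Neither was called. Among the calcium channel relatives, CACNA1B and CACNA1G had log2 fold changes of −0.58 and −0.65, and neither was called.

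In PPs most of the members were scarcely read. In CPM (counts scaled to library size), only CACNA1H, SCN9A, KCNK3 and KCNJ11 reached a mean of 1 at any time. ABCC8 had 22 reads in all over the 8 WT libraries and 7 over the 8 A5-KO libraries, with 0 reads in 2 and in 6 libraries respectively. At 0 h ABCC8 had 1 read in each WT library and 0 in each A5-KO library, both under the 3 reads that a count of 0 allows, so no fold is given. CACNA1A (0 to 25 reads per library), CACNA1C (2 to 27), CACNA1D (2 to 20) and SCN3A (0 to 13) were also too sparse to test.

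Setting CPM per length of the reference transcript, CACNA1H led in PPs with a median of 7.16 per-length units on the TPM scale, ahead of SCN9A (1.78), KCNJ11 (0.557) and KCNK3 (0.436). KCNJ11 and KCNK3 overlapped in range, whereas CACNA1H and SCN9A did not. The order differed from that in hILOs, where ABCC8 and KCNJ11 led, although the tables of each stage were normalised separately and the stages were not tested against each other. SCN3A, the main sodium channel of the pair in hILOs, made up at most 4.87% of it in PPs, the remainder being SCN9A.

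The PP comparison asked whether the genotypes differed before Act D and at each time in it. At 0 h 4 of the 9 members were tested with limma on log2(CPM + 1). CACNA1H was called higher and 0 were called lower, against 1.57% called higher and 1.13% called lower of 13911 genes. KCNK3 was lower at an unadjusted limma p below 0.05, and edgeR gave the same counts at 0 h and at 1 h. At 1 h 3 were tested and KCNK3 was called lower, against 3.19% higher and 1.19% lower of 13549 genes. CACNA1H also had an unadjusted limma p below 0.05 there, and was higher. At 2 h 0 of 4 were called by limma at the adjusted threshold and 0 by edgeR, against 1.08% higher and 0.262% lower of 13383 genes, and 0 of the 4 had an unadjusted p below 0.05. At 3 h 0 of 3 were called by limma and 0 by edgeR, against 1.07% higher and 16.6% lower of 13444 genes. There 2 of the 3 (CACNA1H, higher, and KCNK3, lower) had an unadjusted p below 0.05. Of all genes tested, 4166 were lower and 1148 higher at that unadjusted limma p at 3 h, and 1823 and 979 at 2 h. The counts were 1153 lower and 1531 higher at 0 h, and 1324 and 2037 at 1 h. The median of all genes was −0.10 at 2 h and −0.12 at 3 h on the log2 scale, so member values at those times stand higher by that much relative to the typical gene.

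KCNK3 was lower in A5-KO PPs, the opposite direction to hILOs. At 0 h it was at 2.44 and 3.44 CPM (WT) against 1.61 and 1.14 CPM (A5-KO) (85 and 111 reads against 52 and 39). Both A5-KO libraries were below both WT libraries, and the log2 fold change was −0.73 ± 0.21 (SE, n = 2 per genotype; limma adjusted p = 0.098). At 1 h it was at 2.32 and 2.86 CPM (WT) against 1.01 and 0.438 CPM (A5-KO). The libraries were again apart, and the log2 fold change of −1.08 ± 0.23 (SE) was called (limma adjusted p = 0.019, and 0.17 when genes of low level were kept). At 2 h the values were 1.54 and 2.26 CPM (WT) against 1.02 and 1.18 CPM (A5-KO), and at 3 h they were 1.46 and 1.67 CPM (WT) against 0.739 and 0.790 CPM (A5-KO). The A5-KO libraries were below the WT libraries at 4 of 4 times, though neither the 2 h value (−0.45, limma adjusted p = 0.30) nor the 3 h value (−0.54, limma adjusted p = 0.12) was called.

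Averaged over the 4 times, a comparison added after these values were seen, KCNK3 was lower by a log2 fold change of −0.70 ± 0.11 (SE, n = 8 libraries per genotype; limma adjusted p = 2.1e-04). It was the only member called in that average, against 2% called lower and 1.68% called higher of 13620 genes, and the estimate stayed between −0.76 and −0.64 with any 1 library left out. On the smaller pseudocount of 0.1 the average was −1.12, since the log2(CPM + 1) scale understates changes in a gene at this level. The stages could not be tested against each other, because the TPM and CPM tables were made separately.

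**Figure D3:**
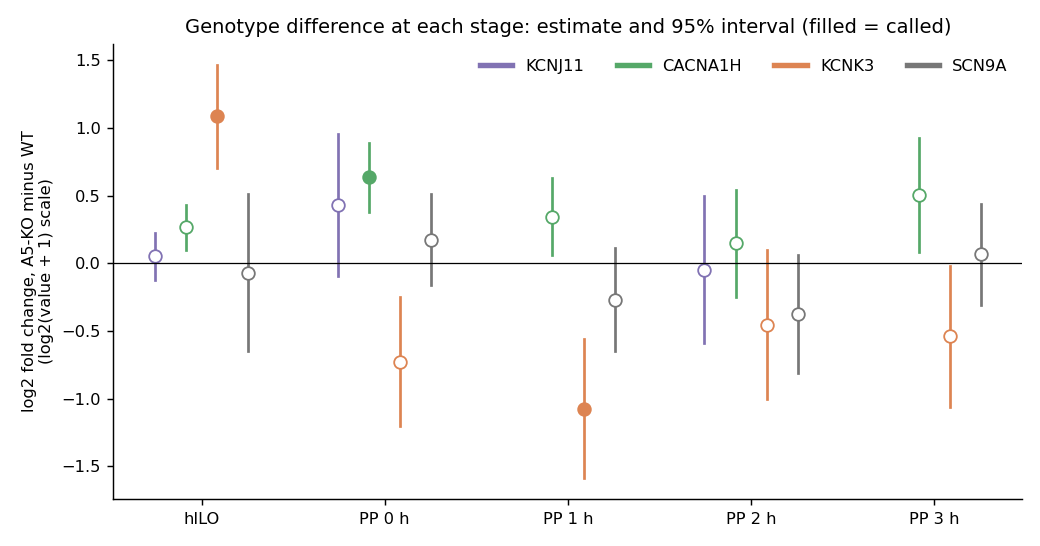
Log2 fold change (A5-KO minus WT, log2(value + 1) scale) of the 4 members that could be tested in both stages, with the estimate as a point, the 95% confidence interval as a line and called values filled. This scale understates a change in a gene as low as KCNK3 in PPs, so its sizes in the stages cannot be compared. KCNK3 was at 1.09 in hILOs and between −1.08 and −0.45 in PPs, while every CACNA1H estimate lay above 0.

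CACNA1H was called higher in A5-KO PPs before Act D. At 0 h it was at 24.4 and 23.5 CPM (WT) against 40.5 and 35.3 CPM (A5-KO), from at least 759 reads per library. The libraries were well apart, with a log2 fold change of 0.64 ± 0.11 (SE, n = 2 per genotype; 95% confidence interval 0.38 to 0.89; limma adjusted p = 0.016). The call was lost without WT replicate 2 (limma adjusted p = 0.068), without A5-KO replicate 1 (limma adjusted p = 0.054), with genes of low level kept (limma adjusted p = 0.070) and in a fit over all PP libraries (limma adjusted p = 0.062), with the estimate between 0.54 and 0.73 throughout.

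Under Act D the CACNA1H libraries lay closer. At 1 h they were at 26.8 and 28.4 CPM (WT) against 40.1 and 31.1 CPM (A5-KO) (log2 fold change 0.35, limma adjusted p = 0.13). At 2 h they were at 25.5 and 34.9 CPM (WT) against 32.4 and 34.0 CPM (A5-KO), where the genotypes overlapped (0.15, limma adjusted p = 0.61). At 3 h they were at 36.8 and 23.9 CPM (WT) against 47.0 and 38.5 CPM (A5-KO), apart again (0.51, limma adjusted p = 0.073). The 3 h value depended on 1 library, since without WT replicate 1, and so with 1 WT library, it was 0.81 and called (limma adjusted p = 1.9e-07), and without WT replicate 2 it was 0.21. It was also called under median-of-ratios scaling (0.62, limma adjusted p = 0.040) and quantile normalization (0.71, limma adjusted p = 0.042). The average over the 4 times was 0.41 ± 0.09 (SE; limma adjusted p = 0.0031), under the 1.5-fold limit.

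KCNJ11 was read at a low level in PPs. At 0 h it was at 1.61 and 0.744 CPM (WT) against 2.04 and 1.73 CPM (A5-KO). Both A5-KO libraries were higher, but the WT libraries differed by more than the gap to A5-KO, and the log2 fold change of 0.43 was not called (limma adjusted p = 0.36). At 1 h it was at 0.658 and 0.846 CPM (WT) against 1.01 and 0.964 CPM (A5-KO), where both A5-KO libraries were higher. At 2 h it was at 1.25 and 1.37 CPM (WT) against 0.992 and 1.51 CPM (A5-KO). At 3 h it was at 1.07 and 0.790 CPM (WT) against 1.28 and 0.379 CPM (A5-KO), from 12 to 45 reads per library, and the genotypes overlapped.

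SCN9A was not called at any time. It was at 9.19 and 9.26 CPM (WT) against 11.4 and 9.72 CPM (A5-KO) at 0 h, where both A5-KO libraries were higher (log2 fold change 0.17, limma adjusted p = 0.58). At 2 h it was at 9.76 and 9.50 CPM (WT) against 6.60 and 7.86 CPM (A5-KO), where both A5-KO libraries were lower (−0.37, limma adjusted p = 0.28). Over all times the 8 WT libraries ran from 8.43 to 11.0 CPM with a median of 9.38, and the 8 A5-KO libraries from 6.60 to 11.4 CPM with a median of 8.93. The average over the 4 times was −0.10, with a 95% confidence interval from −0.28 to 0.08 (limma adjusted p = 0.38). Its exons share 1589 of 13946 bases with the antisense gene SCN1A-AS1, with mean levels at 0 h of 0.029 CPM (WT) and 0.093 CPM (A5-KO).

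**Figure D4:**
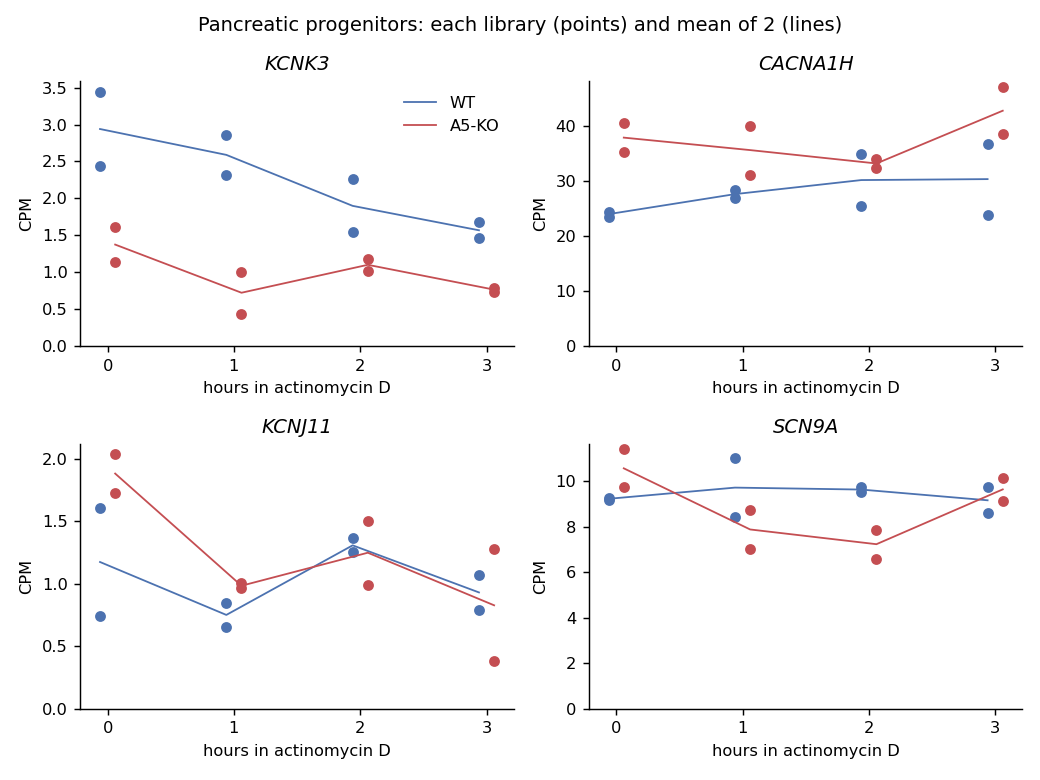
CPM of KCNK3, CACNA1H, KCNJ11 and SCN9A in PPs against hours in Act D, with each library as a point and the mean of the 2 libraries of a genotype as a line. The A5-KO points of KCNK3 lie below the WT points at 4 of 4 times, and those of CACNA1H lie above at 3 of 4.

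The Act D course also asked how fast each mRNA was lost, relative to all mRNA, once transcription was stopped. The slope of log2(CPM + 0.1) per hour was fitted over the 8 libraries of each genotype, and was called at a limma adjusted p below 0.05. In WT 0 of the 4 tested members had a called slope, against 0.11% lower and 0.132% higher of 13620 genes. In A5-KO 0 of the 4 had one, against 37.1% lower and 7.44% higher. For the difference between the slopes 0 of the 4 were called, against 2.61% lower and 0.0661% higher. By limma before adjustment, the KCNK3 slope in WT and the KCNJ11 slope in A5-KO had p below 0.05, and 0 of the 4 slope differences did. Of all 13620 genes, 1554 lower and 265 higher slopes passed that p in WT, and 5634 and 1403 in A5-KO. For the slope difference, 2725 lower and 322 higher passed it.

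KCNK3 had slopes of −0.30 per hour in WT and −0.16 per hour in A5-KO on the log2 scale, each with an SE of 0.13. The difference of 0.14 had a 95% confidence interval from −0.24 to 0.51 (limma adjusted p = 0.70). KCNJ11 had a slope of 0.0039 in WT and −0.36 in A5-KO per hour, a difference of −0.36 ± 0.22 (SE; limma adjusted p = 0.35). Without 1 A5-KO 3 h library, that of replicate 1, the A5-KO slope of KCNJ11 was −0.52 and called (limma adjusted p = 0.021), and without the other it was −0.16. CACNA1H had slopes of 0.10 in WT and 0.04 in A5-KO, and SCN9A had slopes of −0.0039 and −0.05. CPM is relative to the RNA that remained, so a slope near 0 marks an mRNA lost at about the rate of the typical read, not an mRNA that was stable.

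In PPs at 0 h 29 of the 70 related channel genes were tested. CACNA2D1 was called higher (0.65) and CACNB2 lower (−0.88), both of them auxiliary subunits of calcium channels. Of all genes tested at 0 h, 1.57% were called higher and 1.13% lower. The CACNB2 call was lost whichever library was left out (limma adjusted p from 0.055 to 0.097) and with genes of low level kept (0.19). The CACNA2D1 call was lost in 3 of the 4 fits without a library (up to 0.135) and with genes of low level kept (0.13). At 1 h 2 of 23 were called higher (KCNJ16 and KCNK1) and 1 lower (KCNJ5), against 3.19% higher and 1.19% lower of all genes. At 2 h 0 of 20 were called by limma, with 7 at an unadjusted p below 0.05, and edgeR called 1 (KCNJ16, higher). Limma called 1.08% of all 13383 genes higher and 0.262% lower there. Of these genes, 1823 were lower and 979 higher at an unadjusted p below 0.05. At 3 h 1 of 24 was called lower (KCNK5), against 16.6% lower and 1.07% higher of all genes. KCNK5, a two-pore relative of KCNK3, was also the only 1 of 25 with a called slope difference (−0.56 per hour, limma adjusted p = 0.042). Of all genes, 2.61% had a slope difference called lower and 0.0661% one called higher. In A5-KO 8 of 25 slopes were called lower and 1 higher, against 37.1% and 7.44% of all genes, and in WT 0 of 25 were called. In the average over the 4 times 1 of 25 was called higher (KCNK1, 0.61), against 1.68% of all genes, and 0 were called lower. The inward rectifiers KCNJ5 and KCNJ16 had log2 fold changes of −0.75 and 0.85 in PPs at 1 h and of 0.61 and −0.87 in hILOs, each called.

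Markers of other cell types also moved with genotype in untreated PPs. The 5 hepatocyte markers summed to 633 and 636 CPM in WT and to 1395 and 1434 CPM in A5-KO, with AHSG below 1 CPM. Most of this sum was AFP (557 CPM in WT against 1319 CPM in A5-KO on average), called higher like ALB and FGB. APOA2 (68.7 against 64.4 CPM) overlapped between the genotypes. The 6 mesenchyme markers summed to between 108 and 116 CPM in WT and between 154 and 166 CPM in A5-KO, with DCN below 1 CPM. COL3A1 (23.0 CPM in WT against 61.6 CPM in A5-KO on average), COL1A1 and LUM were called higher. COL1A2 (71.4 against 66.7 CPM) and PDGFRB (7.83 against 11.5 CPM) were not called. The neuron markers summed to at most 4.36 CPM, with ELAVL3 and ELAVL4 below 1 CPM in every untreated library. The part of these cell types in the CACNA1H and KCNK3 values was not tested.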

How the data were processed

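RNA-seq of 4 hILO and 16 PP libraries was analysed, 2 per group, with groups taken from the labels. The authors trimmed reads with fastp and aligned them to GRCh38 with HISAT2 (2.1.0, per the labels' processing notes). They deposited TPM per gene for hILOs and CPM per gene for PPs after the spike-ins were removed, and the counter behind the CPM is not given in the sources used here. The deposited TPM summed to 922614 and 924887 in WT and to 887320 and 897038 in A5-KO. TPM and CPM are relative to the RNA in a library, so a loss shared by all genes is not seen. The deposited CPM were whole multiples of 1 read (within 0.05 reads) for 100% of values.

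Genotypes were compared with limma (3.58.1; trended variance) over all genes with a mean of at least 1, on log2(value + 1), and slopes on log2(CPM + 0.1). The block on replicate number was an alternative, because same-numbered libraries deviated together weakly or not at all (r = −0.07 to 0.17). The highest r, 0.17, was in PPs at 0 h. An exact permutation test of 2 against 2 cannot go below p = 0.33. edgeR (4.0.16) was run on the recovered reads. Within each PP group the replicates differed by over 4.28 times the sampling variance. The fits were also run on simulated data with known changes and the same dispersion for every gene. Replicate spread in the real PP libraries differed between groups, so that run did not measure error rates in these data. The members and lists were chosen with earlier results of these data known. Named genes were the 9 members, ALKBH5, called genes of the channel lists, markers, and the 3 genes most alike each member; genes overlapping a member and the uncalled KCNK16, KCNK17, CACNA1B and CACNA1G were named after their values were seen. Columns were per library, and no comparison by the authors was used. A few listed genes are not reported here and were left out of the list counts and sums.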

Additional observations from a re-analysis of the deposited data

Results flagged for a closer look

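KCNK3 moved in opposite directions in the 2 stages, with every A5-KO library above every WT library in hILOs and below it in PPs at 0 h. The log2 fold change was 1.09 in hILOs and −0.73 in PPs at 0 h. Both are on the log2(value + 1) scale, which understates a change at the low PP level, so the 2 sizes cannot be compared. The hILO call was lost whichever library was left out, and the PP 0 h value was not called (limma adjusted p = 0.098). The difference between the stages was not tested, because the TPM and CPM tables were normalised separately and no library is shared. Among the related channels, KCNJ5 was called higher in hILOs (0.61) and lower in PPs at 1 h (−0.75), and KCNJ16 was called lower in hILOs (−0.87) and higher in PPs at 1 h (0.85), also untested between stages. Both hILO calls were lost whichever library was left out. At 0 h in PPs neither gene was called, and KCNJ5 had a log2 fold change of 0.21, the direction in hILOs, and KCNJ16 one of 0.54, the opposite direction.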

How the results depend on the processing

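The number of members called differed from the reported one as follows. In hILOs 0 were called higher with genes of low level kept and 0 in each of the 4 fits that left out a library (range 0 to 0). At 0 h in PPs 0 were called higher with genes of low level kept and 0 in a fit over all PP libraries, 0 to 1 with a library left out, and 1 was called lower (KCNK3, limma adjusted p = 0.019) with the replicate block. At 1 h 0 were called lower with genes of low level kept. At 3 h 1 was called higher under median-of-ratios scaling, 1 under quantile normalization and 0 to 1 with a library left out. The replicate block changed no other member's call, but moved all genes called in hILOs to 385 lower and 289 higher, at 0 h to 266 and 365, at 2 h to 346 and 282, and for the slope difference to 0 and 0.

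The following values changed sign. In hILOs SCN9A was 0.022 under quantile normalization. With a library left out, CACNA1A ran from −1.08 to 0.12, CACNA1D from −0.67 to 0.022 and SCN9A from −0.23 to 0.088. At 2 h KCNJ11 was 0.016 under median-of-ratios scaling, 0.020 under quantile normalization and 0.029 by edgeR. Leaving out a library took KCNJ11 from −0.21 to 0.12 and CACNA1H from −0.070 to 0.37 at 2 h, and SCN9A from −0.013 to 0.15 at 3 h. The average over the 4 times of SCN9A was 0.0078 under quantile normalization. The WT slope of KCNJ11 was −0.0039 with a pseudocount of 1, −0.077 from 0 and 3 h and −0.50 from 0 and 1 h, and ran from −0.083 to 0.15 with a library left out. The WT slope of SCN9A was 0.026 under median-of-ratios scaling and 0.062 from 0 and 1 h, and ran from −0.016 to 0.024. The A5-KO slope of CACNA1H was −0.097 from 0 and 1 h and ran from −0.022 to 0.086, and that of SCN9A was 0.048 under median-of-ratios scaling and ran from −0.12 to 0.021. The slope difference was 0.0092 for CACNA1H and 0.022 for SCN9A under median-of-ratios scaling, ran from −0.11 to 0.025 for SCN9A, and from 0 and 1 h was −0.75 for KCNK3 and −0.53 for ALKBH5. The cause was not tested. The slope difference of ALKBH5 from 0 and 3 h was 0.26 and called (limma adjusted p = 0.031). The PP libraries held 12 to 66 reads of KCNJ11 and 15 to 111 of KCNK3, so a small difference in either may not be detectable at this depth.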

Other observations

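The genes whose log2(CPM + 1) followed each member most closely over the 16 PP libraries were found by Pearson correlation over 13620 genes, as a description. For KCNK3 they were TMTC2 (0.94), SEMA7A (0.94) and GFPT2 (0.94). For CACNA1H they were SLC6A9 (0.93), PALD1 (0.93) and SLC7A5 (0.93), of which SLC6A9 is a glycine transporter and SLC7A5 a transporter of large neutral amino acids. SCN9A was followed by ENAH (0.86), IPO8 (0.82) and ZNF618 (0.82), and KCNJ11 by FOXD2-AS1 (0.80), C1orf198 (0.78) and PSTPIP2 (0.78). The 16 points share genotype and hours in Act D, so they are not independent.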
